A study of Mus musculus with 4 samples.

Results

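The MYC, MAX and MXD network is a family of transcription factors that share a basic helix-loop-helix leucine zipper domain and compete for partners on DNA. It was taken here as 10 genes, Myc, Mycn, Max, Mxd1, Mxd3, Mxd4, Mxi1, Mnt, Mlx and Mga, chosen by symbol among the 22180 genes that the platform annotation pairs with a probe set of a single symbol. All 10 had such a probe set, and the brightest over the 4 arrays stood for each gene. The cells were naive CD4+ T cells (CD62L high, CD44 low, CD25-) sorted from pooled spleen and lymph nodes of C57BL/6 mice of the TACI-/- or the WT genotype, with 2 arrays per genotype called biological replicates in the labels. TACI is a receptor for the cytokines BAFF and APRIL that is best known from B cells. How the allele was made, the age and sex of the mice and the number of mice in a pool are not given in the sources used here, so p-values measure only the spread between these samples. Values are those of Affymetrix Mouse Gene 2.0 ST arrays in log2 units, where a difference of 1 is a doubling, and the number of arrays limits their precision.

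The targeted gene itself, Tnfrsf13b, lay between 2.73 and 3.09 log2 units on the 4 arrays. This is below the low-value filter, the 40th percentile of the single-symbol probe sets on each array (3.74 to 3.77). The probe set of Tnfrsf13b therefore did not check the genotype labels. Cd4 was at 10.4 to 10.6 and Cd3e, a chain of the T cell receptor complex, at 11.2 to 11.6. Of the 2 chains of CD8, Cd8a was below the filter on all 4 arrays, but Cd8b1 was above it on all 4, at 6.11 and 5.73 in TACI-/- cells and at 6.55 and 6.59 in WT cells, a log2 fold change of -0.65 ± 0.16 (SE) with a limma adjusted p of 0.327. Arrays of the same genotype correlated at r = 0.982 (TACI-/-) and 0.984 (WT) over 13782 tested genes, and arrays of different genotypes at 0.976 to 0.981.

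MYC and its relative N-MYC bind DNA only as dimers with MAX and raise the transcription of genes for growth. The MXD proteins (MXI1 is also known as MXD2) and MNT pair with the same MAX and recruit SIN3 corepressors, so they oppose MYC at the same sites. MLX is the MAX-like partner of the glucose-sensing factors MondoA and ChREBP and can also dimerise with MXD1, MXD4 and MNT, and MGA joins MAX to a non-canonical Polycomb complex. In T cells, MYC is low at rest, is induced by antigen receptor signals and is needed for the metabolic changes of activation.

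Dimers of MAX bind the E-box, the letters CACGTG, and the start sites of the members themselves were searched for it. RefSeq promoter windows (GRCm38.p6, 250 bases before to 50 bases after a start, both strands; the motif is its own reverse complement) were found for 9 of the 10 members, in 11 windows of which 3 belonged to Mxi1; Myc had none in the table. An E-box stood in 7.15% of all 32851 windows. Counted by gene, 11.1% of the tested genes with a window had an E-box in any of their windows. Among the 9 members found, 4 had E-boxes, Max, Mlx, Mnt and Mxd4. The stretches around them are shown, 30 bases each on the gene's own strand, because they are the sites at which the network's dimers could meet its own genes. Capitals mark the E-box, which begins 219 bases before the start in Mxd4 (chr5:34187912-34187941, minus strand), 123 in Mnt (chr11:74830789-74830818, plus), 40 in Mlx (chr11:101087238-101087267, plus) and 3 in Max (chr12:76962234-76962263, minus).
Mxd4: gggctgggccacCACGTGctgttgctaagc
Mnt: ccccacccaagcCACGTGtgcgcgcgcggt
Mlx: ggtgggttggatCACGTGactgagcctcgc
Max: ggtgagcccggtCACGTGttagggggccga
The letters are a description of the windows, and no binding was measured. None of these 4 genes passed the test of the genotype difference given next.

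The series holds a single comparison, TACI-/- against WT, and the question put to it here was whether the network's genes differ with the genotype. The antagonist gene Mxd1 had the largest difference among the tested members, at 1.42-fold the WT level, while Myc had a small difference in the opposite direction, with WT at 1.15-fold the TACI-/- level. Of the 9 members past the low-value filter, 0 had an adjusted p under 0.05 (limma, Benjamini-Hochberg over all genes tested), a call made for 19 of 13782 genes (0.138%). At an unadjusted p under 0.05 there was 1 member, Mxd1, against 8.78% of all tested genes. It counts among the genes higher in TACI-/- cells (4.94% of all tested), and 0 members were among those lower (3.84%). A fit with no moderation of the variance added Mnt at the unadjusted threshold and again called 0 members after adjustment. The smallest change among the 19 called genes was 2.26-fold, in Oas1b, so a change of the size of Mxd1 was below any that was called at this number of arrays.

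The 4 arrays did not overlap between the genotypes for 4 of the 9 tested members. Mxd1 and Mnt were higher on both TACI-/- arrays than on either WT array, which held for 20.5% of all tested genes. Myc and Mga were lower on both, which held for 18.1%. The median log2 fold change (TACI-/- minus WT) was 0.10 over the tested members, 6 of which were positive, and 0.01 over all tested genes, of which 51.8% were positive. The median size of the change, whatever its sign, was 0.17 in the members and 0.13 in all tested genes.

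**Figure D1:**
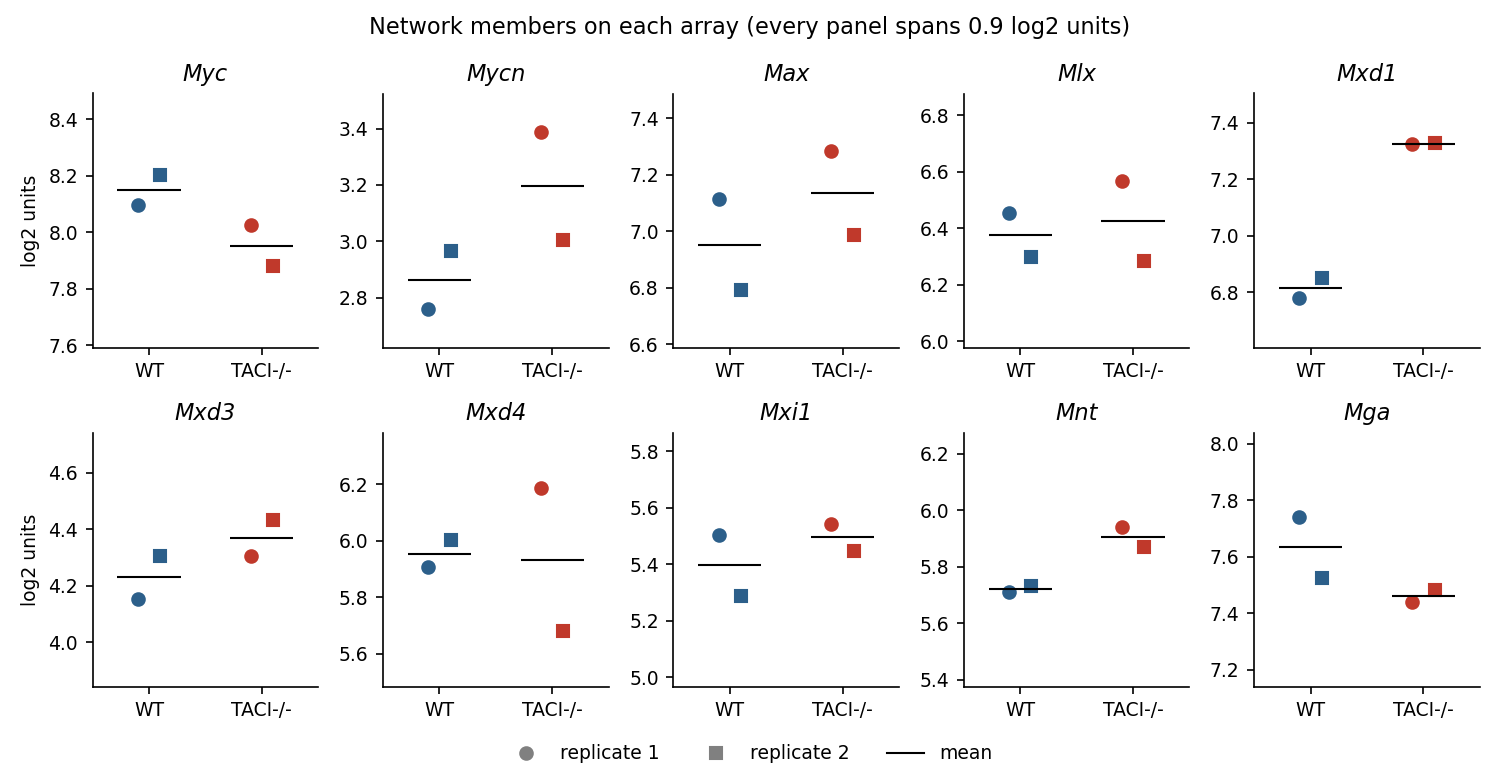
Level of each network member on each array in log2 units, WT in blue and TACI-/- in red, with circles for replicate 1, squares for replicate 2 and a line at the genotype mean; each panel has its own level axis of equal span, so heights cannot be set against each other between panels. The 2 genotypes are apart with little spread in Mxd1 and Mnt, narrowly apart in Myc and Mga, and overlap in Max, Mlx, Mxd3, Mxd4 and Mxi1; Mycn is below the low-value filter.

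Myc, the activator of the network, was well above the filter in these naive cells. It was at 8.02 and 7.88 log2 units in TACI-/- cells and at 8.10 and 8.20 in WT cells, means of 7.95 ± 0.10 and 8.15 ± 0.08 (SD, n = 2). Both TACI-/- arrays were lower than both WT arrays, the nearest of them by less than the gap between the replicates of either genotype. The log2 fold change was -0.20 ± 0.14 (SE), with a 95% interval from -0.52 to 0.13 (limma adjusted p = 0.752). A list of genes known to be induced early by antigen receptor signals, made with earlier results of these samples known, had 12 tested members (median log2 fold change 1.22), of which 5 passed the threshold, against 0.138% of all tested genes. Since the list was made with the genes that changed most in mind, its direction was given by its choice and is no yardstick for Myc.

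Mycn encodes N-MYC, which is best known from embryonic tissue and neuroblastoma. It was at 3.39 and 3.004 in TACI-/- cells and at 2.76 and 2.97 in WT cells, below the filter on all 4 arrays. Its values therefore cannot show a difference, and it was not tested. Mycl, the third MYC gene, lay below the filter on all 4 arrays too, at 2.77 to 3.07, which leaves Myc as the only MYC gene with a level above the filter.

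Max encodes the partner that MYC, MXD, MNT and MGA proteins share. Its values were 7.28 and 6.99 in TACI-/- cells against 7.11 and 6.79 in WT cells, and the genotypes overlapped. The arrays of one genotype differed by 0.30 and 0.32, more than the log2 fold change of 0.18 ± 0.18 (SE; 95% interval -0.24 to 0.60). Mlx, the partner of MondoA, was at 6.57 and 6.29 against 6.45 and 6.30, also overlapping, with a log2 fold change of 0.05 ± 0.15. In Max, Mlx and the brighter probe set of Mxi1, replicate 1 was the higher array in both genotypes.

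Mxd1 (MAD1) pairs with MAX to repress MYC sites and is known to be induced as cells leave the cycle and differentiate. It was at 7.33 and 7.33 log2 units in TACI-/- cells and at 6.78 and 6.85 in WT cells. The TACI-/- arrays lay 0.0011 apart and the WT arrays 0.07 apart, so the gap between the genotypes was several times the spread within them. The log2 fold change was 0.51 ± 0.13 (SE), with a 95% interval from 0.20 to 0.82, an unadjusted limma p of 0.006 and an adjusted p of 0.327. By unadjusted p it ranked 252 of 13782 tested genes, and 4.05% of tested genes had a change of at least its size. Under the 13 alternatives its log2 fold change stayed between 0.47 and 0.55 and its limma adjusted p between 0.154 and 0.924.

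The value of Mxd1 minus that of Myc on the same array was -0.70 and -0.55 log2 units in TACI-/- cells against -1.32 and -1.35 in WT cells. Probe sets of different genes have no common scale, so only the change of this difference can be read, which was 0.71. The pair was chosen after both values were seen, so this is a description and was given no test.

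The 250 bases before the annotated start of Mxd1 (GRCm38.p6, chr6:86669160-86669409, minus strand) are shown because Mxd1 was the member with the largest tested difference. Capitals mark the letters CCAAT, the box bound by the factor NF-Y, which stand there 4 times, all on the printed strand, and begin 240, 192, 99 and 58 bases before the start.
Mxd1: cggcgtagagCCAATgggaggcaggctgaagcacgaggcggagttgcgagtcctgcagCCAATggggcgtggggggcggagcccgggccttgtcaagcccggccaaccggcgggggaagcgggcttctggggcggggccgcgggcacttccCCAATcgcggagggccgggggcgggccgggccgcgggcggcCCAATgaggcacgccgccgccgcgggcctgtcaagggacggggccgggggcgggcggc
At least 4 CCAAT boxes, counted on both strands in windows of 300 bases, were found in 1.06% of all 32851 RefSeq windows, and at least 1 in 37.4%. Among the other members, Mxd4 and Mlx had 2 each and the remaining windows 0. The Mxd1 window also held 6 GC boxes (GGGCGG, known to be bound by SP1), a number reached by 1.35% of windows. Such a number was not particular to Mxd1, since the Mxd3 window held 8, while the windows of the remaining members held 0 to 4. The share of G and C in the Mxd1 window was 76.7%, the highest among the windows of the members, with a window of Mxi1 close behind. The Mxd1 window held no CACGTG. The motifs were chosen after the levels were known, they were counted independently, so that their letters may overlap, and they were not tested against the genotype difference.

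In the other MXD genes the arrays of the genotypes met or overlapped. Mxd3, which is known from proliferating cells, was at 4.31 and 4.43 in TACI-/- cells and at 4.15 and 4.31 in WT cells, with a log2 fold change of 0.14 ± 0.14 (SE; 95% interval -0.19 to 0.47). Mxd4 was at 6.19 and 5.68 in TACI-/- cells and at 5.91 and 6.00 in WT cells. The TACI-/- arrays of Mxd4 thus stood 0.50 apart on either side of the WT arrays, the widest gap between replicates among the members. Its log2 fold change was -0.02 ± 0.19 (95% interval -0.47 to 0.43), and its sign turned without TACI-/- replicate 2, at 0.23, and without WT replicate 2, at 0.03.

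Mxi1 had 2 probe sets of its own. The brighter was at 5.54 and 5.45 in TACI-/- cells and at 5.51 and 5.29 in WT cells, and the dimmer at 5.25 and 4.84 against 4.85 and 4.93. The log2 fold changes were 0.10 ± 0.14 (SE) and 0.16 ± 0.18 (SE), the latter from a fit of all probe sets with 1 symbol. The genotypes overlapped in both, so the 2 probe sets gave the same picture.

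Mnt, a broadly expressed MYC antagonist, was at 5.94 and 5.87 in TACI-/- cells and at 5.71 and 5.73 in WT cells. The arrays were close within each genotype and did not overlap between them. The log2 fold change was 0.19 ± 0.13 (SE; 95% interval -0.12 to 0.49), with a limma adjusted p of 0.754. With no moderation of the variance, which takes the small spread of these 4 arrays at face value, the unadjusted p was 0.0363 and the adjusted p 0.685.

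Mga, the large protein that carries a T-box as well as the helix-loop-helix domain, was at 7.44 and 7.48 in TACI-/- cells and at 7.74 and 7.53 in WT cells. The nearest arrays of the 2 genotypes were closer to each other than the WT arrays were. The log2 fold change was -0.17 ± 0.14 (SE; 95% interval -0.51 to 0.16). Of the Polycomb complex that MGA assembles, 8 of 8 listed genes were tested and 0 passed in either direction. They ran from -0.20 for Pcgf6, a ring finger subunit, to 0.21 for L3mbtl2, a subunit that compacts chromatin, with a median of 0.02.

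**Figure D2:**
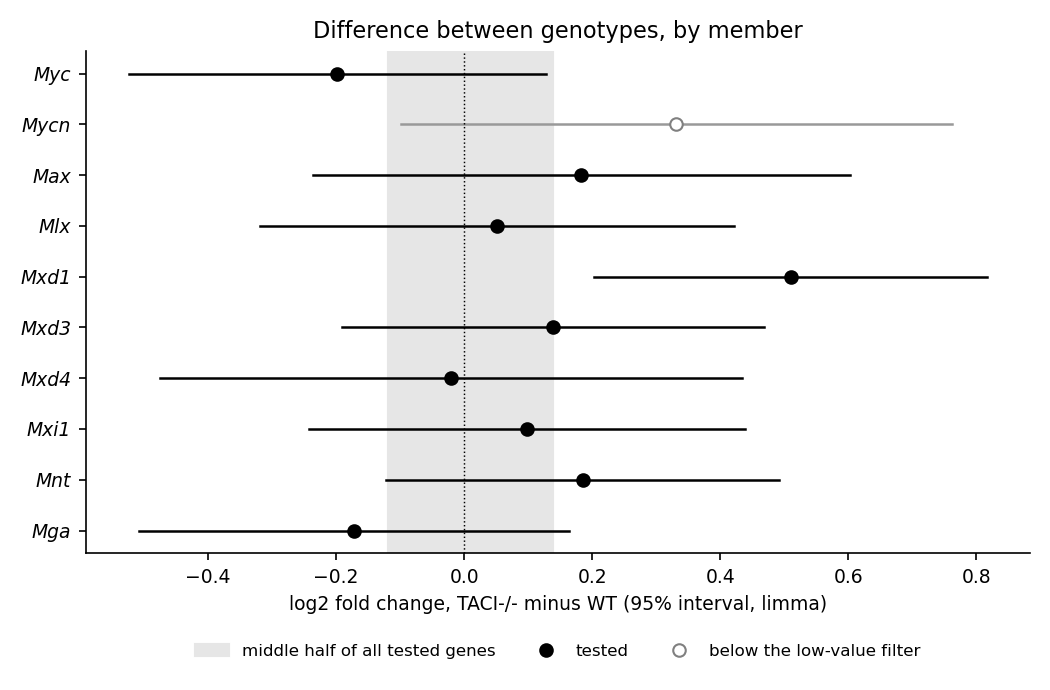
Log2 fold change of each member, TACI-/- minus WT, with its 95% interval from limma; filled points were tested, the open point (Mycn) was below the filter and comes from the fit without it, and the grey band is the interquartile range of all tested genes. Only the interval of Mxd1, from 0.20 to 0.82, lies wholly on one side of 0, and it carries no adjustment for the number of genes tested.

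Genes around the members were read from lists made from general knowledge. Among the relatives with the same domain, 6 of 8 were tested and 0 passed in either direction. Mlxip, which encodes MondoA, was at 7.76 and 7.70 in TACI-/- cells and at 7.82 and 7.67 in WT cells, a log2 fold change of -0.01 ± 0.13 (SE). Mlxipl (ChREBP) was below the filter on all 4 arrays. Usf1, an E-box factor outside the MAX family, had the lowest p of this list, with -0.27 ± 0.15 (limma adjusted p = 0.673).

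The 13 tested corepressors and coactivators had a median log2 fold change of 0.03, and 0 passed in either direction. Sin3a, the corepressor scaffold that MXD proteins recruit, was at 7.78 and 7.79 in TACI-/- cells and at 7.76 and 7.75 in WT cells. Its paralog Sin3b had -0.22 ± 0.16 (SE). The range over the list was -0.22 to 0.20, the upper end being Zbtb17, which encodes the MYC partner MIZ1.

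Among regulators of the MYC protein, 9 were tested and 0 passed in either direction, with a median of 0.09. Pim1, a kinase that phosphorylates MYC and is itself induced by cytokines, was at 7.99 and 7.71 in TACI-/- cells and at 7.15 and 7.13 in WT cells. Pim1 was higher on both TACI-/- arrays than on either WT array, as were 20.5% of all tested genes. Its log2 fold change, 0.71 ± 0.15 (SE) with a limma adjusted p of 0.258, was the largest of this list. A dimmer probe set of Pim1, near the filter, was at 3.91 and 3.75 in TACI-/- cells and at 3.81 and 3.72 in WT cells. The genotypes overlapped there, with a log2 fold change of 0.06 ± 0.14 (SE) from a fit of all probe sets with 1 symbol. Fbxw7, the ubiquitin ligase subunit that marks MYC for destruction, had 0.09 ± 0.15, and Usp36, a nucleolar deubiquitinase of MYC, 0.23 ± 0.14.

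Genes that MYC is known to induce were read as the output of the network. Of 40 listed genes 37 were tested, of which 0 passed after adjustment in either direction (limma) and 4 (10.8%) had an unadjusted p under 0.05 and were higher in TACI-/- cells, beside 4.94% of all tested genes. A further 0 were lower at that threshold, beside 3.84%. The median log2 fold change was 0.03, beside 0.01 over all tested genes, with 22 positive and 15 negative members. Without TACI-/- replicate 2 the median was 0.13, beside 0.03 over all tested genes in that fit. The arrays did not overlap for 11 members that were higher (29.7%, beside 20.5% of all tested genes) and 7 that were lower in TACI-/- cells (18.9%, beside 18.1%). These shares are counts of few genes and were not tested against the background.

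The 4 genes with the lowest p were Slc16a1, Odc1, Tfrc and Slc7a5. Slc16a1, the lactate and pyruvate transporter MCT1, was at 7.06 and 7.06 in TACI-/- cells and at 6.03 and 6.19 in WT cells. It was 1.93-fold the WT level, or 0.95 ± 0.13 (SE) on the log2 scale, with a limma adjusted p of 0.0929. It passed the threshold with a mean-variance trend (adjusted p = 0.0213) and where all 4 arrays had to be above the filter (0.0486), and over all alternatives its adjusted p ran from 0.0213 to 0.618. Odc1, the rate-limiting enzyme of polyamine synthesis, had 0.39 ± 0.13, Slc7a5, a transporter of large neutral amino acids, 0.37 ± 0.15, and Tfrc, the transferrin receptor, 0.32 ± 0.13, with limma adjusted p from 0.509 to 0.568.

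By role, a grouping made after the values were seen, the 5 transport genes Slc16a1, Slc7a5, Slc3a2, Tfrc and Slc7a1 had log2 fold changes from 0.14 to 0.95 and a median of 0.32. None of the 5 passed after adjustment. Each was higher on both TACI-/- arrays than on either WT array, as were 20.5% of all tested genes, and since the group was formed with these values in view, its common direction is no support for a difference in transport genes. The 14 ribosome biogenesis genes had a median of 0.10 and ran from -0.38 for Nop16 to 0.29 for Ncl, the nucleolar protein nucleolin. The 7 genes of polyamine, nucleotide and one-carbon synthesis had a median of 0.01 and the 4 genes of translation -0.01. The 7 remaining genes, of glycolysis, the cell cycle and mitochondria, had a median of -0.07 with 1 positive member. The groups differ in the number of genes and were not tested against each other.

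Genes listed as lowered by MYC were also mixed. Of 10 listed genes 7 were tested, 0 passed in either direction, and the median was 0.14. Of those tested, 5 were positive and 2 negative, beside 51.8% positive over all tested genes. Gadd45b, a stress gene that is also induced early after stimulation, was at 7.52 and 7.06 in TACI-/- cells and at 6.02 and 5.94 in WT cells, 2.48-fold the WT level (log2 fold change 1.31 ± 0.18, SE, with a limma adjusted p of 0.0887). The cell cycle inhibitor gene Cdkn1b (p27) had -0.14 ± 0.14, and Cdkn1a (p21) was below the filter on 3 of 4 arrays. Ndrg1 had 0.33 ± 0.17, and Btg1, a gene of quiescence, 0.21 ± 0.13.

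Targets of MondoA and MLX showed no common direction. Txnip, which restrains glucose uptake and which MYC is also known to lower, was at 10.02 and 9.90 in TACI-/- cells and at 10.16 and 10.08 in WT cells, a log2 fold change of -0.16 ± 0.13 (SE). Arrdc4, of the same arrestin family, had 0.23 ± 0.14. For Arrdc3 the replicates stood far apart in both genotypes, at 5.87 and 6.38 against 5.71 and 6.61.

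**Figure D3:**
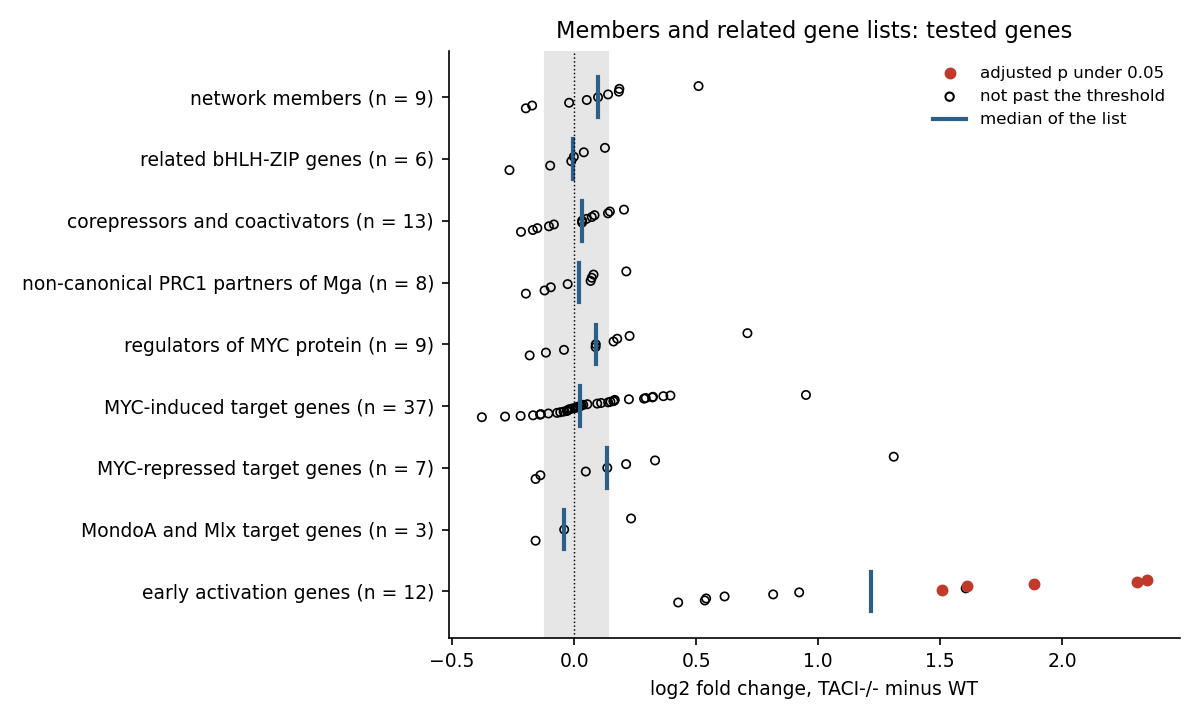
Log2 fold changes, TACI-/- minus WT, of the tested genes of each list, one point per gene, with the list median as a blue bar and the interquartile range of all tested genes as a grey band; red points passed an adjusted p under 0.05. The medians of the network and of its partner, cofactor, regulator and target lists lie between -0.04 and 0.14, and among these 9 lists, which leave out the cell type markers, red points occur only in the early activation list.

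The arrays also carry markers of cells that the sort was meant to leave out. Levels were summed over a list on a linear scale (the antilog of the log2 values). Such a sum follows the brightest genes of a list and does not measure the share of a cell type. B cell markers with a probe set of 1 symbol (11 of 13 listed) were at 262 to 328 in TACI-/- and 216 to 234 in WT cells. Of these, 8 of 8 tested were positive (median log2 fold change 0.40), beside 51.8% of all tested genes. Regulatory T cell markers (11 of 11 listed) were at 664 to 693 and 462 to 494. They had 10 of 11 positive, beside 51.8% of all tested genes, and a median of 0.50. Izumo1r (0.03) and Ikzf4 (-0.04) were close to no change. In this list 1 gene, Ctla4, was past the threshold, beside 0.138% of all tested genes. CD8 T and NK cell markers (8 of 8) were at 267 to 289 and 306 to 332. Of the 4 tested, 2 were positive, with a median of -0.29 between Klrd1 (-0.87), Cd8b1 (-0.65), Prf1 (0.08) and Eomes (0.79). Myeloid markers (8 of 8) were at 185 to 198 and 161 to 176, sums led by Cd68, the brightest of them on all 4 arrays. Of the 5 tested, 2 were positive, with a median of -0.15; Cd68 had 0.71, while Lyz2 and Fcer1g had -0.49 and -0.36. Each list held genes that were tested and genes that were not, except the regulatory T cell list, whose 11 members were all tested. Of that list, Ikzf2, Tigit and Lrrc32 were below the filter on both WT arrays, as was Ly86 of the B cell list. These genes passed only through the TACI-/- arrays, so their positive sign was set by the filter. Below it on all 4 arrays were Ms4a1 and Blk (B cells), Cd8a, Klrb1c and Gzma (CD8 T and NK cells) and S100a8, S100a9 and Itgax (myeloid cells). Above it on all 4 were, among others, Cd79a (4.63 to 5.09) and Pax5 (3.97 to 4.33) of B cells, Cd8b1, Klrd1 (4.76 to 5.79) and Prf1 (6.79 to 7.005), and Cd68 (5.70 to 6.71). The filter is a rank on each array and no detection call. Pax5, for example, lay below the median of all 41345 probe sets (4.11 and 4.13) on the WT arrays. Foxp3, which defines regulatory T cells, was above the filter in these cells sorted as CD25-, with a log2 fold change of 0.58 ± 0.16 (SE). The part of these cells in the values of Mxd1, Pim1 and Slc16a1 was not tested, and in sorted bulk RNA a change in the share of cells that make a transcript and a change in the amount per cell cannot be told apart.

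**Figure D4:**
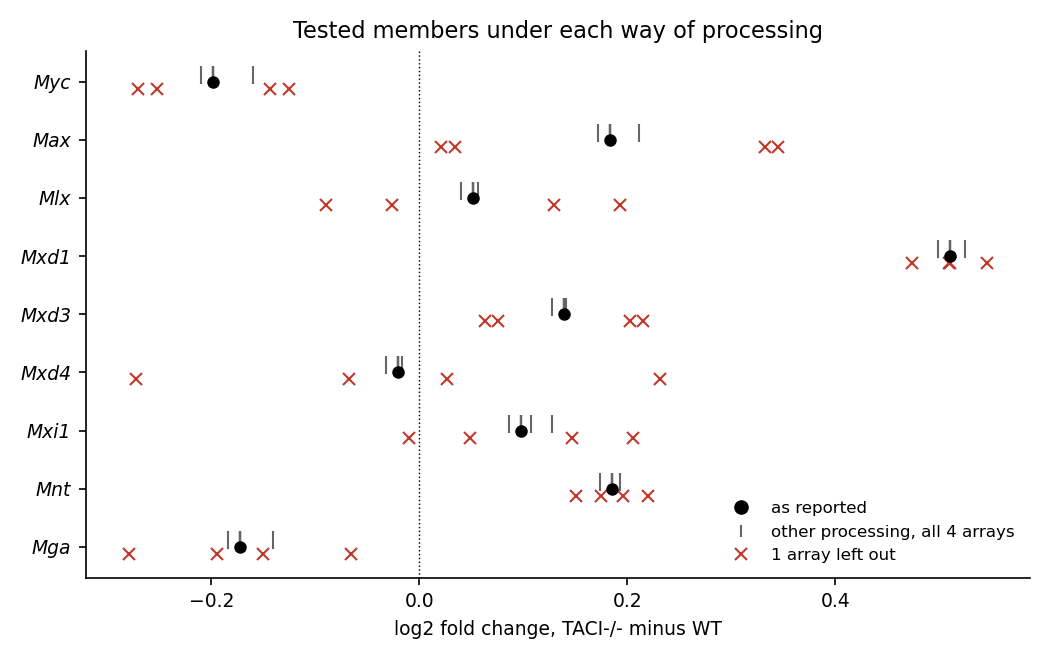
Log2 fold change of the 9 tested members as reported (black points), under 9 other ways of processing all 4 arrays (grey ticks) and with 1 array left out (red crosses). Mxd1 stays between 0.47 and 0.55 and Myc between -0.27 and -0.13, while crosses lie on both sides of 0 for Mlx, Mxd4 and Mxi1.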

How the data were processed

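The deposited table held log2 values per probe set and array. The submitters' processing notes name RMA and Partek with no version or role; the base of the log is not stated and was taken as 2 from RMA and from the range, 0.94 to 13.2. The sources used here give no genome build and no filter by the authors. The platform annotation gave 23521 of 41345 probe sets a single symbol, 1814 several and 16010 none there; the last 2 kinds were not used here. Testing required 2 or more arrays to reach that array's 40th percentile. Genotypes were compared over all 13782 such genes with limma 3.58.1 in R 4.3.3 (genotype the only term, two-sided, Benjamini-Hochberg), and the fit was tested on simulated data. Lists were described by counts and medians, without a set test. Up to 4 genes of a list were named, by lowest p; others named were chosen after their values were seen. Members and lists were chosen with earlier results of these data known. Alternatives changed the filter, normalization, probe set choice, variance model, replicate block and arrays used. Promoter windows and chromosomes came from RefSeq (GRCm38.p6).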

Additional observations from a re-analysis of the deposited data

How the results depend on the processing

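Over all tested genes, the 19 calls at an adjusted p under 0.05 (limma) became 3 with no filter on low values, 35 where all 4 arrays had to reach the 40th percentile, 46 with a mean-variance trend and 0 with no moderation of the variance, which left 986 genes at an unadjusted p under 0.05; they were 0 without any 1 of the arrays, with 721 to 1145 genes at an unadjusted p under 0.05. Nothing in the labels ties the same replicate number across genotypes (correlation of same-numbered deviations -0.03), and with the replicate block 13 genes and 0 members passed. No alternative gave a member an adjusted p under 0.05. At an unadjusted p under 0.05 there was 1 member, Mxd1, in each alternative except no moderation of the variance, which had 2, Mxd1 and Mnt. The sign of the log2 fold change turned for Mlx without TACI-/- replicate 1 (-0.090) and without WT replicate 2 (-0.03), and it ran from -0.090 to 0.19 over the fits with 1 array left out. It turned for Mxd4 without TACI-/- replicate 2 (0.23) and without WT replicate 2 (0.03), in a range from -0.27 to 0.23. For Mxi1 it turned without WT replicate 2 (-0.0099), in a range up to 0.21. Of the MYC-induced genes, 1, Slc16a1, passed with the mean-variance trend and with the filter on all 4 arrays, and 0 otherwise. Their median ran from -0.0032 to 0.13 with 1 array left out, beside -0.01 to 0.03 over all tested genes. A fit without an array leaves 1 sample in a genotype, assumed to vary like the other. The cause of these changes was not tested. Genes below the filter on all 4 arrays, such as Mycn, entered no test in the main fit, and the filter is a rank and no detection call. Of the tested members, Mxd3 lay nearest to the filter, at 4.15 to 4.43.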

Other observations

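The genes whose values over the 4 arrays, centred on each gene's mean, lay nearest to those of Mxd1 were Rora, a nuclear receptor of helper T cell lineages, Inpp5f, a phosphoinositide phosphatase, and the pseudogene Speer9-ps1, at Euclidean distances of 0.04, 0.05 and 0.05 log2 units. Within 0.1 log2 units there were 25 tested genes. Rora was at 5.05 and 4.998 in TACI-/- cells and at 4.45 and 4.55 in WT cells, a log2 fold change of 0.52 (limma adjusted p = 0.323). Likeness over 4 arrays, of which each genotype holds 2, is a description only.

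Among tested genes with a RefSeq promoter window, the 1196 with a CACGTG E-box had a median log2 fold change of 0.01, with 9.2% at an unadjusted limma p under 0.05. The 9548 without it had a median of 0.01, with 8.22% at that threshold. An E-box stood in a window of 9 of 30 MYC-induced genes with a window and of 11.1% of all tested genes with one. These shares were not tested, since genes with several annotated starts have more windows and so more chances of a match.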
